A study of Mus musculus with 15 samples.

Results

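The enzymes of phase II conjugation, the glutathione transferases, UDP-glucuronosyltransferases and sulfotransferases, were examined in monolayers of mouse duodenal organoid cells exposed to dietary protein sources. The members were the genes whose symbol places them in the Gst, Mgst, Ugt or Sult families and which were measured by a probe set carrying 1 gene symbol, and where a gene had more than 1 such probe set, the one with the highest mean was kept. This gave 45 genes of 18820 on the array, made up of 17 soluble and 3 membrane-bound glutathione transferases, 15 sulfotransferases and 10 glucuronosyltransferases. A further 19 symbols of these families, among them Gsta1, Gsta2 and the genes of the Ugt1a locus, lay on probe sets shared by several genes and were not members.

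RNA was measured on Affymetrix mouse gene 1.1 ST arrays in 15 samples, 3 for each of 5 groups: bovine casein (CAS), meal of soybeans (SBM), plasma protein of pigs that had been spray-dried (SDPP), the larvae of the yellow mealworm (YMW) and a medium control (MC) that received DMEM without protein. All groups shared the same source of cells, duodenal organoids of female C57BL/6J mice aged 9 weeks, grown as a 2D monolayer in W-ENR medium, and the exposure lasted 6 h. Each sample was a pool of 3 wells, and the labels give the concentration of each source as 4% w/v, which is not the same as the amount per volume that the methods state beside it. The labels call the samples biological replicates but do not tie a sample to an animal, so p-values measure the spread between these samples.

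Conjugating enzymes attach a polar group to a reactive or lipophilic compound, which makes it easier to export. Glutathione transferases add glutathione to electrophiles, glucuronosyltransferases in the endoplasmic reticulum add glucuronic acid from its UDP-sugar, and cytosolic sulfotransferases add sulfate from the activated donor PAPS. In the small intestine these enzymes are found mainly in the absorptive enterocytes, where they act on drugs, plant phenols, steroids, bile acids and products of lipid oxidation before these reach the blood.

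Values are log2 intensities. A gene was taken to be above background when its mean over all arrays was higher than 3.91, a level that 95% of the genes for olfactory and vomeronasal receptors did not exceed, and 27 of the 45 members were. They comprised 16 soluble and 3 membrane-bound glutathione transferases, 5 sulfotransferases and 3 glucuronosyltransferases. Levels of different probe sets cannot be ranked against each other, because probes differ in how well they hybridize.

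The 3 MC samples did not lie together. Of the 27 members above background, 24 had MC replicate 1 within the range of the 12 treated arrays, while MC replicate 2 lay above all treated arrays in 20, below them in 2 and within their range in 5, and MC replicate 3 lay above in 19, below in 3 and within in 5. Of the 12880 genes above background, 83.3% had MC replicate 1 within that range. For MC replicate 2 these genes were 18.8% above, 23% below and 58.2% within, and for MC replicate 3 they were 23% above, 27.9% below and 49.1% within. The markers of enterocytes moved in the same way. Alpi, the intestinal alkaline phosphatase of mature enterocytes, was 11.40, 11.65 and 12.34 in CAS, 11.35, 11.69 and 12.13 in SBM, 12.48, 12.28 and 11.53 in SDPP, 12.21, 11.59 and 11.49 in YMW and 11.58, 12.76 and 12.83 in MC. The mean of 19 enterocyte markers lay between 7.91 and 9.56 in the treated arrays and was 8.12, 10.06 and 10.07 in the MC arrays, and that of 11 stem cell markers lay between 8.64 and 9.08 in the treated arrays and was 8.94, 8.21 and 7.69 in the MC arrays. All 19 enterocyte markers were above background, as were 4 of 6 fibroblast and 2 of 6 leukocyte markers. In RNA from a whole monolayer, fewer cells of a type and less RNA per cell cannot be told apart, and whether a different share of enterocytes in the samples had a part in the results below was not tested beyond the fits with Alpi that are given further on.

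The proximal promoters of 4 members that stand for the patterns described below are shown first, namely a sulfotransferase and a glucuronosyltransferase that followed Alpi across the treated arrays, a glutathione transferase that ran against it, and the glucuronosyltransferase that was lowest in CAS samples. Each is the 250 bases before a transcription start in RefSeq on GRCm38.p6, written 5′ to 3′ on the strand of the gene, with matches to the motifs below in capitals. Sult1b1 had 2 starts and the others 1, and where there was more than 1, the window with the most motif matches was kept. The windows are chr5:87536223-87536472 (minus strand) for Sult1b1, chr5:87337196-87337445 (minus strand) for Ugt2a3, chr1:21240335-21240584 (plus strand) for Gsta3 and chr5:87000610-87000859 (plus strand) for Ugt2b35.
Sult1b1: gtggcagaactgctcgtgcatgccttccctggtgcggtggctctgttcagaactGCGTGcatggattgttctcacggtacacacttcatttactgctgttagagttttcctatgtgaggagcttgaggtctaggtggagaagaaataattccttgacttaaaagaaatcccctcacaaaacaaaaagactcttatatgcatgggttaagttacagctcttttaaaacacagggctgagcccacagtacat
Ugt2a3: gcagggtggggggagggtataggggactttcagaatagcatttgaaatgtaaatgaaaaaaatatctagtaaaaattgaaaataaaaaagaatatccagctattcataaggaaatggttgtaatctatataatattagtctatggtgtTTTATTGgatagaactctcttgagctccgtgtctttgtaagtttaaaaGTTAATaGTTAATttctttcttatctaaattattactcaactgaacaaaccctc
Gsta3: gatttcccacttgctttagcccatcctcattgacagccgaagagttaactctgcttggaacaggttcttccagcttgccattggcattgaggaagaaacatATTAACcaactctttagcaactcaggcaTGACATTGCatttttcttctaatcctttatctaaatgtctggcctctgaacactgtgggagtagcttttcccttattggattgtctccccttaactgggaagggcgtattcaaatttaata
Ugt2b35: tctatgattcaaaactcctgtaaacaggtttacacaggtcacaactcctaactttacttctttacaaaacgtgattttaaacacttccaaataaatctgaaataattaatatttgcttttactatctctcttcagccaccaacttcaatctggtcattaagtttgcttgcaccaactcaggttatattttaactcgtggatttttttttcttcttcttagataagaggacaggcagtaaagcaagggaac
The motifs searched on both strands were the antioxidant response element TGACNNNGC, the core of the xenobiotic response element GCGTG, the core of the HNF1 site GTTAAT, the HNF4 site TGNACTTTG and the CDX site TTTATNG, and no match shown overlapped another. The capitals are 1 GCGTG in Sult1b1, 1 TTTATNG and 2 GTTAAT in Ugt2a3, and 1 GTTAAT and 1 TGACNNNGC in Gsta3, while the window of Ugt2b35 held none of these letters. RefSeq promoters were matched for 42 members with 53 start sites, and not for Gsta4, Gstt2 and Sult4a1. The antioxidant response element was found in 3 of these 53 windows, those of Gsta3, Gstm7 and Mgst1, and in 10.2% of all 32851 promoters. The xenobiotic response element core was found in 9 windows of 8 members, against 28.2% of all promoters, the HNF1 core in 7, against 6.43%, the CDX site in 3, against 9.81%, and the HNF4 site in 0, against 1.19%. These are matches of letters in a window and were not tested for binding.

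Against the MC, every member that passed the study's threshold was lower in the treated samples. The threshold is an unadjusted p under 0.05 and a change of at least 1.5-fold, in 1 limma fit of the 5 group means over all genes. In CAS samples 13 of 45 members passed it, all lower and 0 higher, where 3.85% of all genes passed in either direction, 2.04% lower and 1.82% higher. In SBM samples 6 members fell, against 3.5% of all genes in either direction, 2.14% lower and 1.37% higher. In SDPP samples 4 fell, against 1.63% in either direction, 0.499% lower and 1.13% higher, and in YMW samples 9 fell, against 3.87%, 2.13% lower and 1.74% higher. Among the 12880 genes above background 2.89% were lower in CAS samples and 3.04% in SBM samples, and 0.691% were lower in SDPP samples and 2.97% in YMW samples. The median log2 fold change of the 27 members above background was -0.60 in CAS, -0.42 in SBM, -0.38 in SDPP and -0.44 in YMW samples, where that of all genes above background lay between -0.01 and 0.01. The 4 comparisons share the same MC arrays, so they are not independent of each other.

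The 13, 6, 4 and 9 calls fell on 14 members. Gstm6 passed in all 4 comparisons, 5 members in exactly 3, 5 in exactly 2 and 3 in only 1. After Benjamini-Hochberg adjustment over all genes, Ugt2b35, Gstm2 and Gstm1 were under 0.05 in CAS samples (0.654% of all genes were), and no member was in SBM (0.00531% of all genes), SDPP (0%) or YMW samples (0.00531%), where 16, 11 and 16 members had an unadjusted p under 0.05 (18.2%, 12% and 19% of all genes). All 3 CAS samples lay below all 3 MC samples for 10 members, where 7.59% of all genes did so, and this held for 5 members in SBM (8.96%), 6 in SDPP (5.89%) and 6 in YMW samples (7.12%). In CAS samples no member lay above all MC samples (5.65% of all genes did), and 1 did in SBM, 1 in SDPP and 2 in YMW samples, where 4.97%, 4.87% and 7.42% of all genes did. Some of these members were under the background level. Below the MC they were Ugt2b38 and Ugt2b5 in CAS, Gsto2, Sult5a1 and Ugt2b5 in SBM and Gsto2 in SDPP samples. Above the MC they were Sult6b1 in SBM, Sult3a2 in SDPP and Ugt2b1 in YMW samples. Of the 32 calls, 7 had groups that did not overlap. In all 14 called members MC replicates 2 and 3 lay above each of the 12 treated arrays, and in 13 of them MC replicate 1 did not. With MC replicate 1 as the only control, 0 members passed in any of the 4 comparisons, while 0.834%, 0.611%, 0.744% and 0.494% of all genes did. Without MC replicate 1 the counts were 15 in CAS, 16 in SBM, 14 in SDPP and 15 in YMW samples, of which 1 in SBM and 1 in YMW samples was higher (Gsta3), against 9.08%, 9.4%, 7.33% and 9.53% of all genes. Without MC replicate 2 they were 6, 1, 0 and 1, against 1.92%, 1.38%, 0.755% and 1.76% of all genes, and without MC replicate 3 they were 8, 2, 2 and 3, against 1.26%, 0.723%, 0.452% and 1.13%, so the share over all genes was also lower than with all 3 MC arrays. The SD of the MC samples was larger than that of each source in 19 of the 27 members, with a median of 0.41 against 0.14 to 0.24 in the sources, and since the fit uses 1 variance per gene, the SE and p of these comparisons are then too small.

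**Figure D1:**
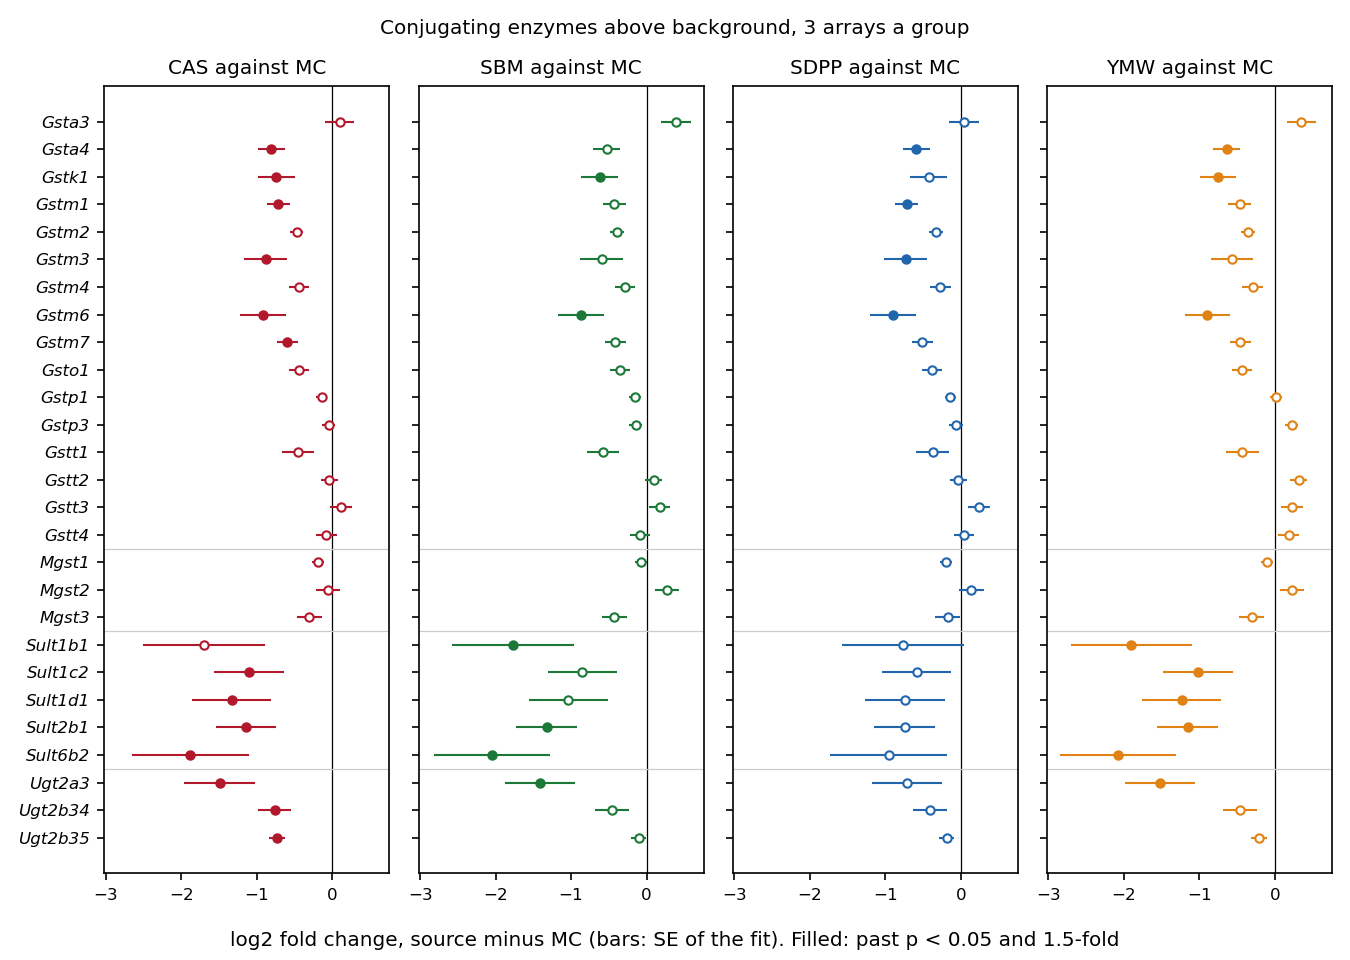
Log2 fold change of the 27 members above background in each protein source relative to the MC, with the SE of the limma fit as bars (3 arrays a group); filled points passed an unadjusted p of 0.05 and a 1.5-fold change. The filled points, 13, 6, 4 and 9 from left to right, all lie below 0, and the sulfotransferases Sult1b1 and Sult6b2 have the widest bars.

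Among the glutathione transferases, 6 of the 19 above background fell in CAS samples, 2 in SBM, 4 in SDPP and 3 in YMW samples, and 0 rose. The alpha-class enzyme Gsta4, which conjugates the lipid peroxidation product 4-hydroxynonenal, was 10.89, 11.12 and 11.28 in CAS, 11.40, 11.27 and 11.46 in SBM, 11.59, 11.33 and 11.02 in SDPP, 11.24, 11.26 and 11.30 in YMW and 11.39, 12.06 and 12.26 in MC samples. All CAS and all YMW samples lay below the 3 MC samples, while SBM and SDPP samples overlapped with MC replicate 1. The log2 fold changes were -0.81 ± 0.18 in CAS, -0.59 ± 0.18 in SDPP and -0.64 ± 0.18 in YMW samples, and Gsta4 did not reach 1.5-fold in SBM samples (-0.53 ± 0.18). Gstk1, the kappa-class enzyme of mitochondria and peroxisomes, was 6.76, 6.84 and 7.25 in CAS, 7.22, 6.86 and 7.13 in SBM, 7.61, 7.25 and 6.94 in SDPP, 6.70, 7.14 and 6.98 in YMW and 7.04, 8.07 and 7.96 in MC samples. Each source overlapped with the MC through its replicate 1. Gstk1 fell in CAS (-0.74 ± 0.24), SBM (-0.62 ± 0.24) and YMW samples (-0.75 ± 0.24), and its value in SDPP samples was -0.43 ± 0.24.

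The mu class of cytosolic glutathione transferases, which acts on epoxides and other electrophiles, had all 6 measured members below 0 in each of the 4 comparisons. Its genes lie together on mouse chromosome 3, and since they resemble each other in sequence, probes of 1 gene may bind transcripts of another, which was not tested. Gstm1 was 9.63, 9.83 and 9.72 in CAS, 10.05, 10.07 and 9.93 in SBM, 9.72, 9.69 and 9.78 in SDPP, 9.95, 10.07 and 9.91 in YMW and 9.93, 10.73 and 10.67 in MC samples. CAS and SDPP samples lay below the whole MC group, with log2 fold changes of -0.72 ± 0.15 in CAS and -0.71 ± 0.15 in SDPP samples, and the other sources lay around MC replicate 1. For CAS the limma adjusted p was 0.0491, and it was under 0.05 in 3 of 25 alternatives. The lowest, 5.53e-07, came with array weights, where MC replicate 2 weighed 21.1, MC replicate 1 0.193 and MC replicate 3 0.504. The highest came with MC replicate 1 as the only control. Gstm6 was 5.09, 5.71 and 6.11 in CAS, 5.82, 5.37 and 5.87 in SBM, 6.01, 5.68 and 5.28 in SDPP, 5.70, 5.76 and 5.53 in YMW and 5.79, 6.96 and 6.92 in MC samples. Its fall was of similar size in all 4 sources, -0.92 ± 0.30 in CAS, -0.87 ± 0.30 in SBM, -0.90 ± 0.30 in SDPP and -0.89 ± 0.30 in YMW samples, and only the YMW samples did not overlap with the MC.

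Gstm3 was 9.88, 10.36 and 10.55 in CAS, 10.46, 10.58 and 10.61 in SBM, 10.75, 10.48 and 10.03 in SDPP, 10.96, 10.52 and 10.26 in YMW and 10.37, 11.59 and 11.48 in MC samples. It fell in CAS (-0.88 ± 0.28) and SDPP samples (-0.73 ± 0.28), with both groups spread around MC replicate 1. A second probe set of Gstm3 had log2 fold changes of -0.98 in CAS and -0.78 in SDPP samples. Gstm7 was 5.82, 5.75 and 5.71 in CAS, 5.91, 5.98 and 5.94 in SBM, 5.96, 5.89 and 5.68 in SDPP, 5.74, 5.98 and 5.97 in YMW and 5.98, 6.65 and 6.42 in MC samples. It is the called member in which MC replicate 1 also lay above every treated array, though level with the highest of them at 2 decimals, and it fell past 1.5-fold in CAS samples (-0.60 ± 0.14), while the other sources were also below the MC without overlap at -0.41, -0.51 and -0.46 in SBM, SDPP and YMW samples. Gstm2, chosen after its values were seen, was 7.26, 7.26 and 7.41 in CAS and 7.59, 7.91 and 7.85 in MC samples. Its 3 CAS samples were below all MC samples (-0.47 ± 0.09), a change short of 1.5-fold whose limma adjusted p was 0.0376, and 1.18e-06 to 0.639 over 25 alternatives, of which 8 were under 0.05.

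No other soluble glutathione transferase passed the threshold. Gsto1, an omega-class enzyme that reduces rather than conjugates, was 9.53, 9.45 and 9.65 in CAS, 9.57, 9.60 and 9.46 in YMW samples and between 9.73 and 10.22 in MC samples, and both sources lay below the MC (-0.44 ± 0.13 and -0.44 ± 0.13). Of the pi class, Gstp3 was 6.83, 7.01 and 6.94 in YMW and 6.68, 6.76 and 6.68 in MC samples, with the YMW samples above the MC samples (0.22 ± 0.09, unadjusted p = 0.0247). The theta-class gene Gstt2 was 6.87, 7.10 and 7.38 in YMW and 6.89, 6.73 and 6.78 in MC samples (0.32 ± 0.11, unadjusted p = 0.0136), and these overlapped. Both were higher in YMW samples, by less than 1.5-fold. Gsta3, an alpha-class enzyme that in the mouse conjugates the aflatoxin epoxide, was 9.31, 9.40 and 9.12 in CAS, 9.72, 9.60 and 9.39 in SBM, 9.03, 9.21 and 9.44 in SDPP, 9.37, 9.68 and 9.54 in YMW and 9.76, 8.94 and 8.83 in MC samples. MC replicate 1 was its highest array of all and MC replicates 2 and 3 were its lowest. Its values against the whole MC were 0.39 ± 0.19 in SBM and 0.35 ± 0.19 in YMW samples, and without MC replicate 1 they were 0.68 ± 0.13 and 0.64 ± 0.13 with limma adjusted p of 0.00173 and 0.00237, over the 1.5-fold threshold. With MC replicate 1 as the only control the differences were -0.19 in SBM, -0.23 in YMW, -0.49 in CAS and -0.54 in SDPP samples. Over all alternatives the adjusted p ran between 0.000152 and 1 in SBM and between 0.000254 and 0.925 in YMW samples.

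Membrane-bound glutathione transferases sit in the endoplasmic reticulum and the nuclear envelope, and Mgst2 and Mgst3 can also make leukotriene C4. None of the 3 passed the threshold in any comparison. Mgst3 was 9.93, 9.75 and 10.07 in CAS, 9.68, 9.72 and 9.98 in SBM, 10.28, 10.15 and 9.73 in SDPP, 9.92, 9.91 and 9.92 in YMW and 9.80, 10.36 and 10.51 in MC samples. The 2 high MC samples exceeded all treated samples, MC replicate 1 did not, and the largest difference was -0.43 ± 0.17 in SBM samples (unadjusted p = 0.0214). Mgst2 was 7.04, 7.12 and 6.85 in CAS, 7.68, 7.25 and 7.07 in SBM, 7.30, 7.12 and 7.20 in SDPP, 7.06, 7.42 and 7.40 in YMW and 7.32, 7.09 and 6.79 in MC samples, and the groups overlapped throughout. Mgst1 had log2 fold changes between -0.19 and -0.07, and its CAS and SDPP samples lay below the MC samples.

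The sulfotransferases included the largest changes of all members and had a wide spread. Of the 5 above background, 4 fell in CAS, 3 in SBM, 0 in SDPP and 5 in YMW samples. Sult1b1, which sulfates phenols and thyroid hormones, was 4.89, 5.19 and 6.77 in CAS, 5.16, 5.23 and 6.24 in SBM, 7.59, 6.81 and 5.25 in SDPP, 6.45, 5.05 and 4.74 in YMW and 5.22, 8.27 and 8.45 in MC samples. Within each treated group 1 or 2 samples stood well above the rest, and MC replicate 1 lay with the low samples. The log2 fold changes were -1.77 ± 0.81 in SBM and -1.90 ± 0.81 in YMW samples, both past the threshold, and -1.70 ± 0.81 in CAS samples (unadjusted p = 0.0526). Sult6b2 was 5.68, 6.14 and 7.25 in CAS, 5.80, 6.03 and 6.75 in SBM, 8.33, 7.53 and 5.99 in SDPP, 7.06, 5.99 and 5.43 in YMW and 6.13, 9.19 and 9.39 in MC samples. The same samples were high and low as for Sult1b1, and it fell in CAS (-1.88 ± 0.77), SBM (-2.05 ± 0.77) and YMW samples (-2.08 ± 0.77). With MC replicate 1 as the only control these differences were 0.22, 0.06 and 0.03.

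Sult2b1, a sulfotransferase of cholesterol and related sterols, was 7.06, 7.07 and 7.60 in CAS, 6.97, 6.92 and 7.31 in SBM, 8.15, 7.73 and 7.06 in SDPP, 7.47, 7.17 and 7.06 in YMW and 7.13, 8.97 and 9.07 in MC samples. MC replicates 2 and 3 were higher than any treated sample and MC replicate 1 was among the low ones. It fell in CAS (-1.15 ± 0.40), SBM (-1.32 ± 0.40) and YMW samples (-1.16 ± 0.40). Sult1c2, an enzyme of phenol sulfation, was 6.29, 6.80 and 7.69 in CAS, 7.10, 7.003 and 7.44 in SBM, 8.20, 7.74 and 6.39 in SDPP, 7.50, 6.75 and 6.77 in YMW and 7.12, 8.39 and 8.58 in MC samples. It fell in CAS (-1.10 ± 0.46) and YMW samples (-1.02 ± 0.46), with overlap at MC replicate 1. Sult1d1, a mouse sulfotransferase of catecholamines, was 7.67, 7.96 and 8.79 in CAS, 8.32, 8.24 and 8.75 in SBM, 9.63, 8.87 and 7.69 in SDPP, 8.70, 7.87 and 8.16 in YMW and 8.12, 9.97 and 10.33 in MC samples. It too fell in CAS (-1.33 ± 0.53) and YMW samples (-1.24 ± 0.53), and SDPP replicate 1 came closest to the high MC samples in all 5 sulfotransferases.

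All 3 glucuronosyltransferases above background, which lie on mouse chromosome 5, fell in CAS samples, 1 fell in SBM and YMW samples, and 0 in SDPP samples. Ugt2a3, whose human counterpart glucuronidates bile acids, was 4.18, 4.28 and 5.11 in CAS, 4.60, 4.29 and 4.94 in SBM, 6.00, 5.23 and 4.68 in SDPP, 4.93, 4.17 and 4.38 in YMW and 4.70, 6.71 and 6.64 in MC samples. It fell in CAS (-1.49 ± 0.46), SBM (-1.41 ± 0.46) and YMW samples (-1.52 ± 0.46), and all groups overlapped with MC replicate 1. Ugt2b34, of the subfamily that glucuronidates steroids and many drugs, was 10.52, 10.73 and 11.20 in CAS, 10.94, 11.07 and 11.35 in SBM, 11.41, 11.34 and 10.77 in SDPP, 11.38, 11.01 and 10.98 in YMW and 11.12, 11.72 and 11.90 in MC samples. Only CAS samples passed the threshold (-0.76 ± 0.22), with CAS replicate 3 above MC replicate 1.

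Ugt2b35, of the same subfamily, was 6.59, 6.65 and 6.85 in CAS, 7.41, 7.25 and 7.32 in SBM, 7.36, 7.24 and 7.14 in SDPP, 7.24, 7.29 and 7.15 in YMW and 7.24, 7.55 and 7.51 in MC samples. The 3 CAS samples lay below all 12 other arrays, MC replicate 1 included, and the other sources overlapped with the MC. The log2 fold change in CAS samples was -0.73 ± 0.10 (limma adjusted p = 0.00811, and 5.53e-07 to 0.349 over 25 alternatives, of which 20 were under 0.05), and with MC replicate 1 as the only control it was -0.54 ± 0.13 (unadjusted p = 0.000972). In SBM, SDPP and YMW samples it was -0.11 ± 0.10, -0.19 ± 0.10 and -0.21 ± 0.10.

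**Figure D2:**
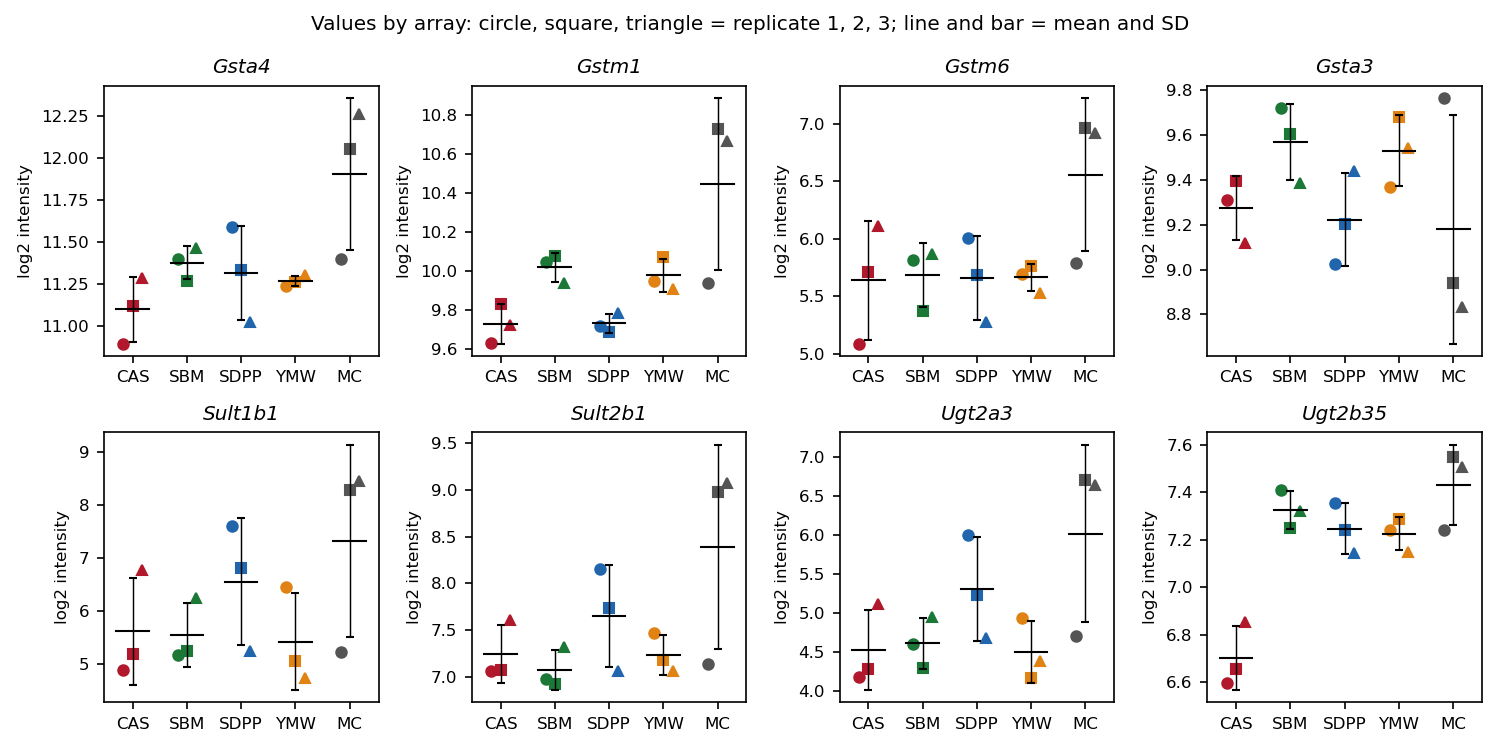
Log2 intensity of 8 members in each array, with circles, squares and triangles for replicates 1, 2 and 3 of each group, a line at the group mean and bars of 1 SD (n = 3). MC replicate 1 sits with the treated arrays in all but Gsta3, where it is the highest array, and the CAS samples of Ugt2b35 lie below every other array.

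The sources were then compared with each other, each against the mean of the other 3, a difference that does not use the MC arrays except through the shared variance. At the study's threshold 0 members passed for CAS (0.159% of all genes), SBM (0.0266%), SDPP (0.0159%) and YMW (0.0691%), while 4, 4, 2 and 5 members had an unadjusted p under 0.05 (5.36%, 4.83%, 2.42% and 5.5% of all genes). Above background these were 1 glucuronosyltransferase in CAS, 1 glutathione transferase and 1 glucuronosyltransferase in SBM and 3 glutathione transferases in YMW samples. The rest, with all those in SDPP samples, were under the background level. At a limma adjusted p under 0.05 there was 1 member, Ugt2b35 in CAS samples, where 0.106% of all genes passed, and there was 0 in SBM samples, where 0.00531% did, and in SDPP and YMW samples. Ugt2b35 differed from the other sources by -0.57 ± 0.08 (adjusted p = 0.0176), with 3 of 3 CAS samples below all samples of the other sources. This held for 3 members and 0.834% of all genes. The members besides Ugt2b35 were Sult6b1 and Ugt2b38, both under the background level, with CAS means of 2.46 and 2.75. The adjusted p of Ugt2b35 ran between 0.000491 and 0.209 over 24 alternatives and was under 0.05 in 20. The exceptions included the omission of CAS replicate 1 (0.186) and of CAS replicate 2 (0.209). Gstp3 in YMW samples was above all other treated samples by 0.31 ± 0.07, with an unadjusted p of 0.000759 and an adjusted p of 0.42. The largest differences were in the sulfotransferases and did not pass: Sult6b2 and Sult1b1 were 1.05 and 1.03 higher in SDPP samples than in the other sources, with SDPP replicate 3 among the low samples. Without SDPP replicate 3 the count for SDPP was 5, all higher, where 0.446% of all genes passed, against 0 and 0.0159% with it.

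The members were next set against Alpi across the 12 treated arrays, without the MC. Alpi itself fell into 7 arrays between 11.35 and 11.69 and 5 arrays between 12.13 and 12.48, with a gap of 0.44, and each source had arrays in both sets. The correlations below therefore rest in large part on the difference between these sets, and the value within the 7 lower arrays is given beside them, with no test. With a permutation p of 100000 resamples adjusted over all 18820 genes, 8 of 45 members had an adjusted p under 0.05, all positive, where 4.42% of all genes did, 2.93% positive and 1.49% negative. Of the genes above background 4.17% were positive and 2.16% negative. The median r of the 27 members above background was 0.57, against -0.06 over all genes above background, and 19 of 27 were positive.

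Sult1b1 had the highest r, 0.97 (rho = 0.90, permutation p = 2e-05, adjusted p = 0.00314), and it was 0.96 without the 2 arrays farthest from the median of Alpi and 0.41 within the 7 lower arrays. Sult6b2 followed with 0.95 (rho = 0.95, permutation p = 2e-05, adjusted p = 0.00314), 0.95 and 0.65. For Sult1c2, r was 0.91 (rho = 0.83, permutation p = 0.00011, adjusted p = 0.00753), 0.85 without the farthest arrays and 0.19 within the lower arrays. Sult2b1 had 0.90 (rho = 0.84, permutation p = 3e-05, adjusted p = 0.0036), 0.88 and 0.04 on the same measures. The other 4 were Sult1d1, Ugt2a3, Ugt2b34 and Mgst3, with r of 0.88, 0.86, 0.85 and 0.80 over the 12 arrays, and 0.03, -0.36, 0.35 and -0.15 within the lower arrays. By Pearson's r the 8 thus held all 5 sulfotransferases above background, 2 of the 3 glucuronosyltransferases and 1 of the 19 glutathione transferases. By Spearman's rho the count was 2, Sult6b2 (adjusted p = 0.00896) and Sult1b1 (adjusted p = 0.0249), and Sult2b1, Sult1c2 and Sult1d1 had adjusted p of 0.0542, 0.0605 and 0.0801. The count by Pearson's r was 4 without SDPP replicate 1 and 2 without the 2 farthest arrays, SDPP replicate 1 and CAS replicate 3. The shares of all genes behind these smaller counts are not given here, so the loss cannot be read as particular to the members.

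At the other end, Gsta3 had the lowest r, -0.78 (rho = -0.73, permutation p = 0.00269, adjusted p = 0.0563), -0.60 without the 2 farthest arrays and -0.02 within the lower arrays. Mgst2 had -0.53 (rho = -0.41, permutation p = 0.0757, adjusted p = 0.345), Gstt2 -0.50 (rho = -0.65, permutation p = 0.0844, adjusted p = 0.365) and Gstt3, also of the theta class, -0.34 (rho = -0.44, permutation p = 0.266, adjusted p = 0.622). Without the farthest arrays these were -0.57, -0.34 and -0.50. Members that fell against the MC were found over most of this range. Gstm1 had an r of -0.34, Gstm7 of -0.06 and Ugt2b35 of 0.22, none with an adjusted p under 0.05, whereas Gstk1 had 0.50, Gsta4 0.57, Gstm6 0.65 and Gstm3 0.69, which did not pass after adjustment either. With the source means in a limma fit, slopes on Alpi were 0.62 for Gstm3, 0.29 for Gsta4 and 0.56 for Gstm6. Their limma adjusted p were 0.000396, 0.0354 and 0.042. Gsta3 had a slope of -0.35 (adjusted p = 0.00191). Gstk1, Gstm1, Gstm7 and Ugt2b35 had adjusted p of 0.395, 0.754, 0.991 and 0.375. These slopes also span both sets of arrays, and the share of all genes is not given here.

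**Figure D3:**
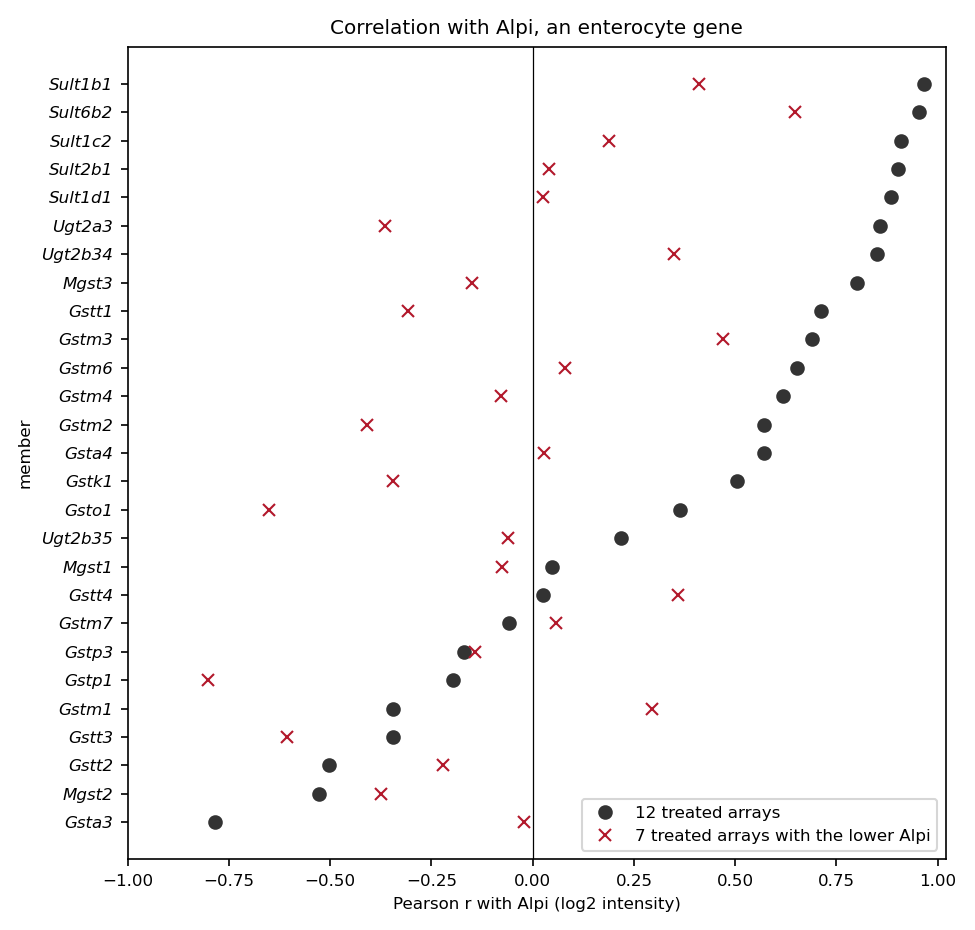
Pearson r of each of the 27 members above background with Alpi on the log2 scale, across the 12 treated arrays (points) and within the 7 of them with the lower Alpi (crosses). The 5 sulfotransferases are at the top with r between 0.88 and 0.97 over the 12 arrays, Gsta3 is at the bottom with -0.78, and within the 7 arrays the values run between -0.80 and 0.65.

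**Figure D4:**
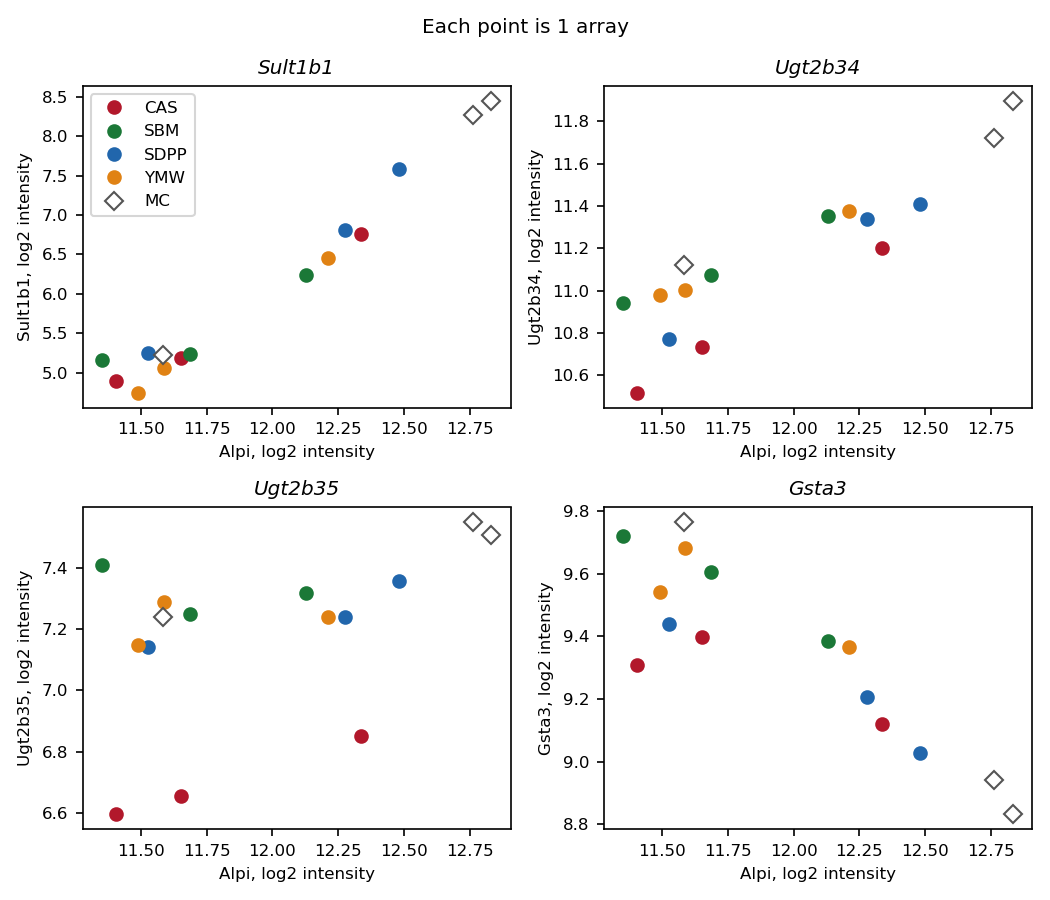
Log2 intensity of 4 members against that of Alpi, 1 point an array, with open diamonds for the MC. Sult1b1 and Ugt2b34 are higher in the 5 treated arrays with the higher Alpi and highest in MC replicates 2 and 3, Gsta3 runs the other way, and Ugt2b35 separates the 3 CAS arrays from the other 12 at any Alpi.

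When Alpi was added to the limma fit as a covariate, 4 members stayed lower past the threshold in CAS, 3 in SBM, 2 in SDPP and 2 in YMW samples, against 1.2%, 0.643%, 0.93% and 1.07% of all genes. The covariate is itself measured in the same samples, and it differs between the MC and the treated samples. The differences of all 32 calls became smaller. Sult1b1 was -1.90 in YMW samples without Alpi and -0.46 ± 0.18 with it, and -1.77 and -0.24 ± 0.18 in SBM samples. Ugt2a3 remained past the threshold in CAS (-0.77 ± 0.21), SBM (-0.59 ± 0.21) and YMW samples (-0.75 ± 0.21), and Sult6b2 did so in the same 3 sources (-0.60 ± 0.20, -0.60 ± 0.21 and -0.72 ± 0.21). Gstm1 moved less, to -0.59 ± 0.14 in CAS and -0.65 ± 0.13 in SDPP samples, and both stayed past the threshold, as did Sult2b1 in SBM and Gstm6 in SDPP samples. Ugt2b35 in CAS samples was -0.63 ± 0.09 (limma adjusted p = 0.0039) beside -0.73 without Alpi, and against the other sources it was -0.56 ± 0.07 (adjusted p = 0.000491). Ugt2b34 in CAS samples shrank to -0.40 ± 0.06, under 1.5-fold, with a limma adjusted p of 0.0039 (2.52e-05 to 1 over 25 alternatives), and against the other sources it was -0.28 ± 0.04 (adjusted p = 0.00386, the only one of 24 alternatives under 0.05, the highest being 1), a difference that had an adjusted p of 0.986 without Alpi.

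**Figure D5:**
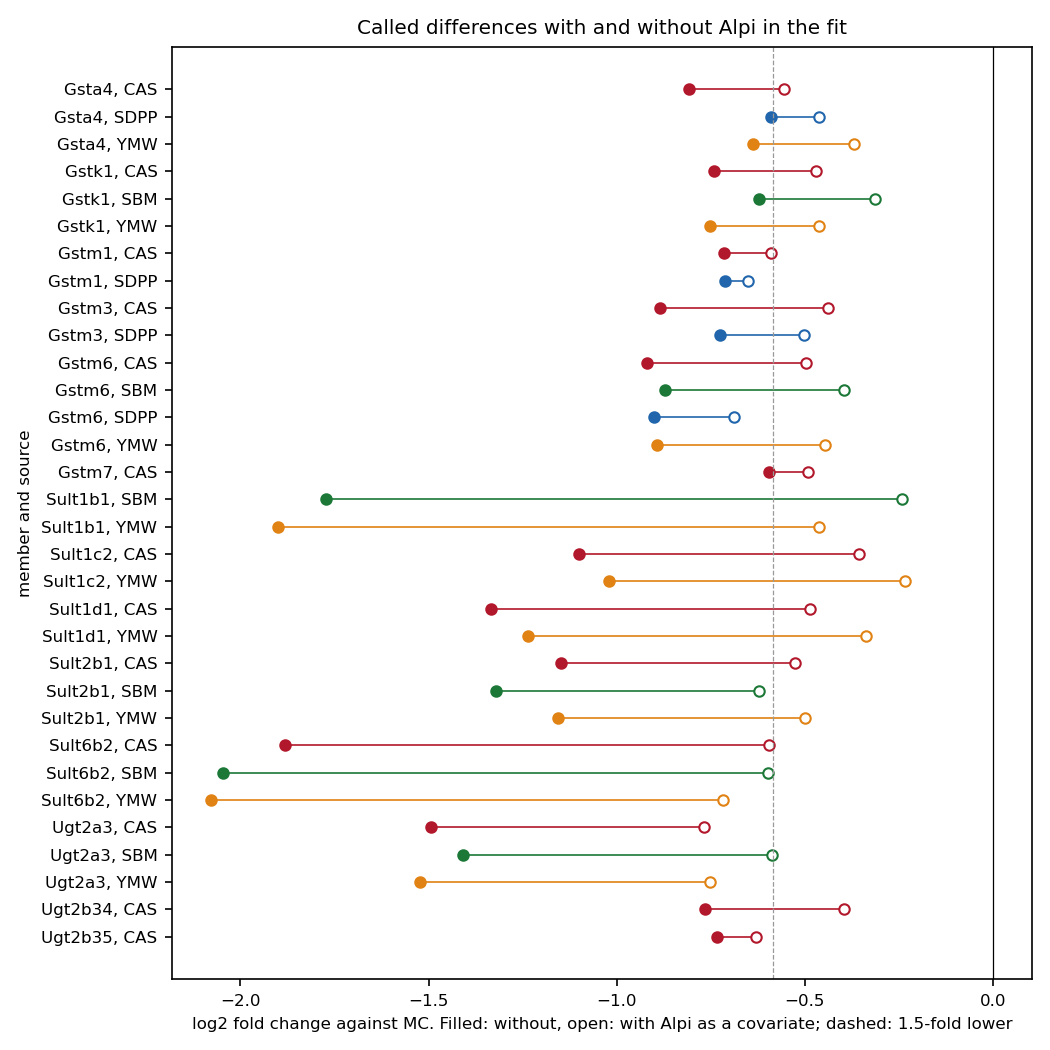
Log2 fold change against the MC for the 32 calls, without (filled) and with (open) Alpi as a covariate, coloured by source, with a dashed line at 1.5-fold lower. Sult1b1 in SBM samples is at -1.77 without and -0.24 with Alpi, while Ugt2b35 in CAS samples is at -0.73 without and -0.63 with it.

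Genes that supply the conjugating enzymes or act on their products were followed in lists, whose counts stand beside 2.04%, 2.14%, 0.499% and 2.13% of all genes that were lower in CAS, SBM, SDPP and YMW samples. The mean of the sulfate supply list was 7.38 to 8.14 in treated arrays and 7.70, 8.65 and 8.70 in MC arrays, and that of UDP-glucuronic acid supply was 8.65 to 8.93 in treated arrays and 8.78, 9.13 and 9.18 in MC arrays. Export had 6.52 to 7.27 in treated arrays and 6.81, 7.36 and 7.45 in MC arrays, hydrolysis 6.13 to 6.60 in treated arrays and 6.31, 6.98 and 7.13 in MC arrays, and regulators 7.78 to 8.14 in treated arrays and 7.91, 8.24 and 8.33 in MC arrays. In these 5 lists MC replicate 1 thus lay among the treated arrays and MC replicates 2 and 3 above them, and the part of this in the counts below was not tested. The mean of the glutathione list lay between 7.88 and 8.08 in the treated arrays and was 8.01, 7.97 and 7.98 in the MC arrays. Sulfate activation and supply had 11 measured genes, of which 6 fell in CAS, 3 in SBM, 2 in SDPP and 7 in YMW samples and 0 rose, with a median log2 fold change of -0.78, -0.49, -0.43 and -0.71. The largest was Slc13a1, a sodium-coupled sulfate transporter, at 4.85, 5.26 and 6.21 in CAS, 5.75, 5.11 and 6.10 in SBM, 7.07, 6.36 and 5.36 in SDPP, 5.81, 5.36 and 4.60 in YMW and 5.49, 9.29 and 9.51 in MC samples. It fell in all 4 sources (-2.65 ± 0.81, -2.44 ± 0.81, -1.83 ± 0.81 and -2.84 ± 0.81 in CAS, SBM, SDPP and YMW samples), with MC replicate 1 among the treated arrays. Papss2, which makes the sulfate donor PAPS, fell in CAS (-1.15 ± 0.39), SBM (-1.13 ± 0.39) and YMW samples (-1.17 ± 0.39). The anion exchangers Slc26a6 and Slc26a3 fell in CAS samples (-1.60 ± 0.66 and -1.16 ± 0.24) and in YMW samples (-1.58 ± 0.66 and -0.83 ± 0.24), and the limma adjusted p of Slc26a3 in CAS samples was 0.0481. Slc26a2, another sulfate transporter, chosen after its values were seen, had -0.78 ± 0.16 in CAS samples (adjusted p = 0.0435). Both adjusted p lie close to 0.05, a level that 0.654% of all genes passed in CAS samples. They were not followed over the alternatives, which were taken for the members alone. Slc13a1, Slc26a2, Slc26a3 and Slc26a6 carry sulfate or other anions across membranes and do not conjugate.

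Of 7 genes of UDP-glucuronic acid supply, 2 fell in CAS and SBM samples, 1 in YMW and 0 in SDPP samples, and they were Slc35d1 (-0.70 ± 0.23 in CAS samples) and Slc35d2 (-0.60 ± 0.17), transporters of nucleotide sugars. Of the 22 genes of glutathione synthesis and recycling, 1 was lower in CAS, 2 in SBM, 0 in SDPP and 2 in YMW samples, 2 were higher in YMW samples and 0 in the others, with medians between -0.03 and 0.07. Gclc, the catalytic subunit of the enzyme that limits glutathione synthesis, rose in YMW samples (0.71 ± 0.21), as did the peroxidase Gpx2 (0.66 ± 0.27), while Gpx1 fell (-0.63 ± 0.22), and so did the dipeptidase Dpep1 (-0.90 ± 0.33). A list of 18 further genes, 9 of them above background, held acetyl-, methyl- and acyltransferases and also reductases, which do not conjugate, and of these 0 passed in CAS, 2 in SBM, 1 in SDPP and 2 in YMW samples. The carbonyl reductase Cbr3 rose in SBM (0.91 ± 0.18) and YMW samples (0.92 ± 0.18), and the arylamine acetyltransferase Nat2 fell in SBM (-0.61 ± 0.20), SDPP (-0.59 ± 0.20) and YMW samples (-0.73 ± 0.20).

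Of 11 genes of conjugate export, 3 fell in CAS, 3 in SBM, 0 in SDPP and 2 in YMW samples and 1 rose in YMW samples. The bile acid transporter subunit Slc51a fell in CAS (-1.29 ± 0.56), SBM (-1.32 ± 0.56) and YMW samples (-1.34 ± 0.56), as did the efflux pump Abcg2 (-0.83 ± 0.30, -0.71 ± 0.30 and -0.85 ± 0.30), and the efflux pump Abcc4 rose in YMW samples (0.73 ± 0.30). Of 13 genes of hydrolysis, 6 fell in CAS, 3 in SBM, 2 in SDPP and 3 in YMW samples, led by the carboxylesterase Ces2a (-1.59 ± 0.56, -1.65 ± 0.56, -1.38 ± 0.56 and -1.58 ± 0.56). Of 20 regulators, 3 fell in CAS, 1 in SBM, 1 in SDPP and 2 in YMW samples, among them the nuclear receptor Hnf4g (-1.23 ± 0.32, -0.74 ± 0.32, -0.70 ± 0.32 and -0.93 ± 0.32), and the receptors Nr1h4 (-1.11 ± 0.34) and Ppara (-0.78 ± 0.32) in CAS samples. In the same comparisons 5, 10, 2 and 8 of the 19 enterocyte markers fell in CAS, SBM, SDPP and YMW samples, and 4, 3, 3 and 3 of the 11 stem cell markers rose. Of the Paneth, goblet, enteroendocrine and tuft cell markers at most 2 of a list passed in 1 direction in any of these comparisons.

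The remaining 18 members had means between 2.31 and 3.90, under the background level. They were 10 sulfotransferases, 7 glucuronosyltransferases and Gsto2, among them the estrogen sulfotransferase Sult1e1 and the phenol sulfotransferase Sult1a1. None passed the threshold in any of the 8 comparisons, and relative to the MC they differed on the log2 scale by between -0.37 and 0.22. In the limma fit 4 of these 18 in CAS, 3 in SBM, 3 in SDPP and 0 in YMW samples had an unadjusted p under 0.05 against the MC. Of all genes 16.5%, 18.2%, 12% and 19% did. Whether these genes changed was not detectable at this signal.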

How the data were processed

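RNA of 15 monolayer samples was hybridized to 1 array each, and the authors deposited linear intensity values per probe set after RMA, which subtracts background, quantile normalizes the arrays and summarizes probes; its version was not given in the sources used here. The values had been taken to be on the log2 scale when the tests were laid out, but the deposited intensity values are linear (3.02 to 10739), so log2 was taken. Array medians lay between 21.7 and 24.1. Of 35556 probe sets, 21218 carried 1 gene symbol, and each of 18820 genes was represented by its probe set of highest mean.

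Groups came from the sample labels. Differences were tested in R 4.3.3 with limma 3.58.1 (5 group means, 1 variance per gene, a trend of the prior variance on intensity), called at the threshold of the study's methods, an unadjusted p under 0.05 with a fold change of at least 1.5, with Benjamini-Hochberg adjustment over all genes beside it. Standard errors follow ±. The script was tested on simulated data. The number of arrays limits the precision, at 3 a group. Pearson and Spearman correlations with Alpi used two-sided permutation tests with 100000 resamples. Values by array are given for members past the threshold in any comparison, for the member of lowest p in families with none, and for the 4 highest and 4 lowest correlations with Alpi; in each pathway list up to 4 genes past the threshold were named.

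Members and lists were chosen with earlier results of these data known. Replicate numbers were not treated as pairs, since the labels tie them to no animal or batch. Alternatives were the variance prior, a replicate block, 2 further normalizations, array weights, a background filter, averaged probe sets, Alpi as a covariate, fewer samples in the fit, MC replicate 1 as the only control and each array left out, and, chosen after seeing the data, a fit on all probe sets. Promoters came from RefSeq on GRCm38.p6. Columns of fold changes or p-values made by the study were not used.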

Additional observations from a re-analysis of the deposited data

Results flagged for a closer look

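Ugt2b35 differed between the sources. In CAS samples it was lower than the mean of the SBM, SDPP and YMW samples by a log2 difference of -0.567 ± 0.084, with a limma adjusted p of 0.0176 over all genes and 3 of 3 CAS samples below all samples of the other sources. The adjusted p was 0.000491 to 0.209 over 24 alternatives, and without CAS replicate 1 or CAS replicate 2 it was 0.186 or 0.209. Probes of this gene may bind transcripts of related Ugt2b genes, which was not tested.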

How the results depend on the processing

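The counts of members past the threshold against the MC rested on the MC arrays. With array weights they were 17 in CAS, 15 in SBM, 13 in SDPP and 15 in YMW samples, against 7.84%, 7.87%, 5.81% and 8.23% of all genes, with the weight of MC replicate 2 at 21.1 and that of MC replicate 1 at 0.193. With Alpi as a covariate they were 4, 3, 2 and 2, and with MC replicate 1 as the only control 0 in each. Leaving out each array in turn gave 6 to 15 for CAS, 1 to 16 for SBM, 0 to 14 for SDPP and 1 to 15 for YMW samples, the extremes coming from MC replicates. The shares of all genes at these extremes were 1.92% and 9.08% in CAS and 1.38% and 9.4% in SBM samples. They were 0.755% and 7.33% in SDPP and 1.76% and 9.53% in YMW samples. Leaving out a treated array moved the count past 1.5 times without SBM replicate 2 (3 in SBM samples), SDPP replicate 1 (7 in SDPP), SDPP replicate 3 (1 in SDPP) and YMW replicate 3 (5 in YMW). The shares of all genes without these treated arrays are not given here, so these moves cannot be read as particular to the members. The normalizations, the variance prior, the background filter and averaged probe sets kept each count within 1.5 times. Array weights also gave the lowest adjusted p quoted against the MC for Gstm1, Gstm2, Ugt2b34 and Ugt2b35 in CAS samples. The same holds for Gsta3 in SBM and YMW samples, so these lower bounds rest mainly on MC replicate 2.

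Against the other 3 sources, SDPP samples had 3 members past the threshold with array weights (0.308% of all genes), 2 with the 12 treated arrays alone (0.106%) and 0 to 5 with each array left out, CAS samples had 0 to 1, and SBM and YMW samples had 0 to 0. The count of members correlated with Alpi was 21 over all 15 arrays, 2 without the 2 arrays farthest from the median of Alpi, 2 by Spearman's rho and 4 to 9 with each array left out, the lowest without SDPP replicate 1. The shares of all genes under these settings are not given here, so these counts cannot be read as particular to the members.

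With MC replicate 1 as the only control, 11 of the 33 named results changed sign. They were Gstk1 in SBM (0.0257), Gstm3 in SDPP (0.0527), Sult1b1 in SBM (0.32) and YMW (0.19), and Sult1d1 in CAS (0.0227) and YMW samples (0.12). The others were Sult2b1 in CAS (0.11) and YMW (0.10), and Sult6b2 in CAS (0.22), SBM (0.0587) and YMW samples (0.0265). Differences outside the named results, such as those of Gsta3, also changed sign. The 33 named results kept their direction and side of the threshold in 679 of 824 combinations with an alternative and lost the call in 134, of which 83 came without MC replicate 2 or 3, with MC replicate 1 alone or with Alpi. The cause was not tested.

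A replicate block in the fit gave 13, 5, 4 and 8 members in CAS, SBM, SDPP and YMW samples, and the shares of all genes in that fit are not given here. Same-numbered arrays had a median correlation of -0.16 over 30 pairs, and 2 of 15 arrays matched their own number best, so the numbers were not taken as a pairing. The fit on all probe sets, chosen after seeing the data, counted the 15 probe sets shared by several genes together with those of the members. It gave 17, 5, 4 and 9, against 3.16%, 3.59%, 2.05% and 3.37% of all probe sets. The probe sets shared by Gsta1 and Gsta2, which are not members, were among those lower in CAS samples. Precision is limited by 3 arrays a group, and members under the background level had no usable signal.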

Other observations

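Probe sets shared by several genes were outside the members. In a fit on all probe sets, chosen after seeing the data, the 4 probe sets shared by Gsta1 and Gsta2, alpha-class glutathione transferases, were lower in CAS samples than in MC samples by log2 fold changes of -0.83 to -0.74, and 1 of them was lower in YMW samples (-0.59). The probe set shared by the genes of the Ugt1a locus, which glucuronidate bilirubin and phenols, did not pass the threshold (-0.27 ± 0.11 in CAS samples against MC samples).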
